A study of Homo sapiens with 12 samples.

Results

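Mediator and Integrator are large complexes that act on RNA polymerase II, and the genes of their subunits were followed in cells of the human ovarian cancer line ES-2. Genes were taken by symbol: every MED gene with a number, the kinase genes CDK8 and CDK19, their cyclin CCNC, and every INTS gene with a number. The rule uses names only, though the topic was picked with earlier results of these data known. It gave 49 genes of the 14029 tested, 33 of Mediator and 16 of Integrator, and all 49 were in the deposited table, which lists genes left after the authors' filter on low values. The series has 12 samples in 4 groups of 3. Cells carried a control vector (labelled PLKO) or a short hairpin RNA (shRNA) against SRMS, a non-receptor tyrosine kinase, and received 15 µM cisplatin, a platinum drug that crosslinks DNA, for 8 hours, or phosphate-buffered saline (PBS), with 0 hours of cisplatin in the sample titles. Values were used for the 6 cisplatin libraries, 3 with the vector and 3 labelled SRMS shRNA. Samples given PBS (6 of the 12) are not analysed here, so cisplatin is common to both groups and no response to it was measured. The labels name a single hairpin construct and leave unsaid whether replicates were separate cultures, so the spread behind each p-value is that of these libraries and may be technical.

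SRMS transcript was not reduced where the labels name the SRMS shRNA. Its signal (reads scaled to CPM by the effective library size) was 0.067, 0.306 and 0.819 in vector replicates 1, 2 and 3 and 0.328, 1.07 and 0.863 in the libraries labelled SRMS shRNA, from 2 to 47 reads. The groups overlapped, and the log2 fold change was 0.52 (SE 0.303, limma adjusted p = 0.168; with the replicate number as a block, adjusted p = 0.00782, toward more SRMS). The transcript level therefore gives no check of the construct labels, and directions below refer to the libraries as labelled. Reads recovered per library ranged from 28009232 to 56855428. In both groups replicate 1 stood apart: the chi-square per gene was 1.79 (vector) and 1.65 (labelled SRMS shRNA) between replicates 2 and 3, against 3.55 to 5.07 for pairs with replicate 1. The epithelial keratins KRT7, KRT8 and KRT18 and the mesenchymal gene VIM were abundant, and the blood cell genes PTPRC, CD3E and HBB were not listed. Of the epithelial markers, 5 genes were in the table, with summed signals of 1640 to 1699 (vector) and 1621 to 1692 (labelled SRMS shRNA); within that sum KRT7 fell by 0.36 on the log2 scale while KRT8 and KRT18 rose by 0.18 and 0.21. EPCAM, CDH1, KRT19 and MUC16 were not listed. All 5 mesenchymal markers were present, at 5891 to 6437 and 7064 to 7829, with VIM and FN1 rising by 0.29 and 0.27 and CDH2, ZEB1 and SNAI2 falling by 0.17, 0.47 and 0.32. Leukocyte markers (4 of 7, nearly all CD68) summed to 49.5 to 52.2 and 60.6 to 65.1, endothelial markers (3 of 4, nearly all CDH5) to 14.8 to 16.8 and 5.88 to 8.36, and fibroblast markers (3 of 5, nearly all COL1A1) to 1237 to 1240 and 814 to 820.5. Except for the epithelial sum, whose ranges overlapped, these sums differed between the constructs, and their part in the results below was not tested. In bulk RNA, fewer cells of a type and less RNA per cell cannot be told apart.

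Mediator bridges sequence-specific transcription factors and RNA polymerase II at promoters. Its head and middle modules contact the polymerase, MED14 holds the modules together, the tail receives activators, and a detachable kinase module of MED12, MED13, cyclin C and CDK8 (or their paralogs) controls access of the polymerase to the core. Integrator binds polymerase paused near promoters. It cleaves nascent RNA through INTS11 and removes phosphates from the polymerase tail through a bound protein phosphatase 2A (PP2A), and it also forms the ends of small nuclear RNAs. INTS3 serves besides in the SOSS complex, a single-strand DNA binding complex of the DNA damage response, which makes it of interest in cells exposed to a DNA crosslinker.

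The members with the largest falls are shown first by sequence. INTS3 lies on chromosome 1 (GRCh38, 153728067 to 153774808, plus strand), INTS6 on chromosome 13 (51354077 to 51454264, minus strand), MED13 on chromosome 17 (61942605 to 62065282, minus strand) and MED13L on chromosome 12 (115953872 to 116277719, minus strand). Promoter windows of 300 bases came from RefSeq (GRCh38.p14), which matched 37 of the 49 members. The windows of INTS3 (chr1:153727800-153728099, plus strand) and INTS6 (chr13:51452987-51453286, minus strand) are printed 5′ to 3′ because these Integrator genes fell most, with capitals marking motifs found on either strand: CCAAT (or ATTGG), the GC box GGGCGG (or CCGCCC) and the ETS motif CCGGAAG (or CTTCCGG). Overlapping GC boxes run together. The INTS3 window covers the start of the gene span given above. The INTS6 window lies wholly inside its span, so the start used by RefSeq differs there.
INTS3: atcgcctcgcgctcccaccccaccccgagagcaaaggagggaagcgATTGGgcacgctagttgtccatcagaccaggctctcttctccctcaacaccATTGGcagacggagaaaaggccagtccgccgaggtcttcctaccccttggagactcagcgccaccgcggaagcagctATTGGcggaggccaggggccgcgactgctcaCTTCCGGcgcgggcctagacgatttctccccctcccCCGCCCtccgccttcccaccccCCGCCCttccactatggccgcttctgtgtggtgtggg
INTS6: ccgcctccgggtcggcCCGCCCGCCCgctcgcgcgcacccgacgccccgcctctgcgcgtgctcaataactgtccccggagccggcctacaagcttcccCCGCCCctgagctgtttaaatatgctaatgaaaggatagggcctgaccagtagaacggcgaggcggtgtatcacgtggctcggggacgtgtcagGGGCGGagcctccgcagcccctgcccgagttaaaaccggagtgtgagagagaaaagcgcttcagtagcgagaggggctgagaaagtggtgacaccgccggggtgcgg
The INTS3 window held 3 CCAAT boxes, 1 ETS motif and 2 GC boxes, and the INTS6 window held 4 GC boxes and neither of the other motifs. Of the 37 members with a window, 45.9% held CCAAT, against 37.0% of 11313 genes with a window, and 64.9% held GGGCGG, against 67.6%. The ETS motif was in 29.7% of member windows and 17.9% of all windows, AAGATGG in 16.2% and 7.05%, GCGCATGCG in 5.41% and 3.5%, and TATAAA in 5.41% and 6.43%. These are matches of letters, searched on both strands, and carry no reading about a factor.

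An earlier scan of these same fold changes had singled out the hexamer CGTGTC in transcripts, so its place in the members is given as a description only. It occurred in the 3′ UTR of 4 of 49 members (8.16%), against 9.54% of all genes, and in either the coding sequence or the 3′ UTR of 10 members (20.4%), against 25.5%. The sites shown of INTS3, INTS6, MED14 and MED15 lie in the last, untranslated part of the mRNA, and that of MED13L in its coding sequence; another MED15 site, at position 506, is coding and not shown. They are shown from the GENCODE release 29 transcripts (GRCh38), on the sense strand with the hexamer in capitals, because they include 3 of the 4 members with the largest falls and 1 member whose test was not passed.
INTS3: cagagataatCGTGTCttaaaagttg
INTS6: ttgactcttgCGTGTCaatttccctc
MED14: ttcagcagaaCGTGTCaagtcgctaa
MED15: gcatgagggcCGTGTCcccactgtga
MED15, second site: cctcaggaccCGTGTCctcagagcac
MED13L: ttttggtcatCGTGTCcccaggctca
The hexamers start at transcript positions 4458 (INTS3), 3411 (INTS6), 6934 (MED14), 3001 and 3044 (MED15) and 6935 (MED13L). INTS3, INTS6, MED14 and MED13L were lower in the libraries labelled SRMS shRNA, while MED15 with 3 such sites had a log2 fold change of -0.06. Coding sites not shown were also in MED23, which fell (-0.30), and in INTS1 (-0.01), INTS4 (0.04), MED16 (-0.03) and MED24 (-0.0017), which did not pass. Of the 10 members with a coding or 3′ UTR site 5 fell and none rose. Of all 3582 genes with such a site, 1404 fell and 722 rose. MED13, which fell by 1.07 on the log2 scale, and MED1 had no match. The 4 members with a 3′ UTR site had a median log2 fold change of -0.63 (3 fell), against -0.07 for the other members, and for all genes the medians were -0.16 with and 0.02 without such a site. Nothing is read from this, since the hexamer was singled out on these values.

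In the fit across all genes, 19 of the 49 subunit genes fell and 5 rose in the libraries labelled SRMS shRNA, and 25 did not pass the test. A gene counted as changed at a limma adjusted p (Benjamini-Hochberg over all 14029 genes) under 0.05. The background was high: 30.2% of all genes fell and 26.6% rose. Members fell somewhat more often (38.8%) and rose less often (10.2%), a description for which no test was made. The larger falls were in a few genes. INTS3, MED13, INTS6, MED13L, MED26 and MED1 fell by at least 0.5 on the log2 scale, which is 12.2% of members against 10.0% of all genes, and no member rose by as much. Values of the groups did not overlap for 20 members that were lower, against 32.9% of all genes, and for 5 that were higher, against 29.7%. Without replicate 1 of both groups, 5 members rose and 21 fell, against 29.2% and 33.2% of all genes.

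**Figure D1:**
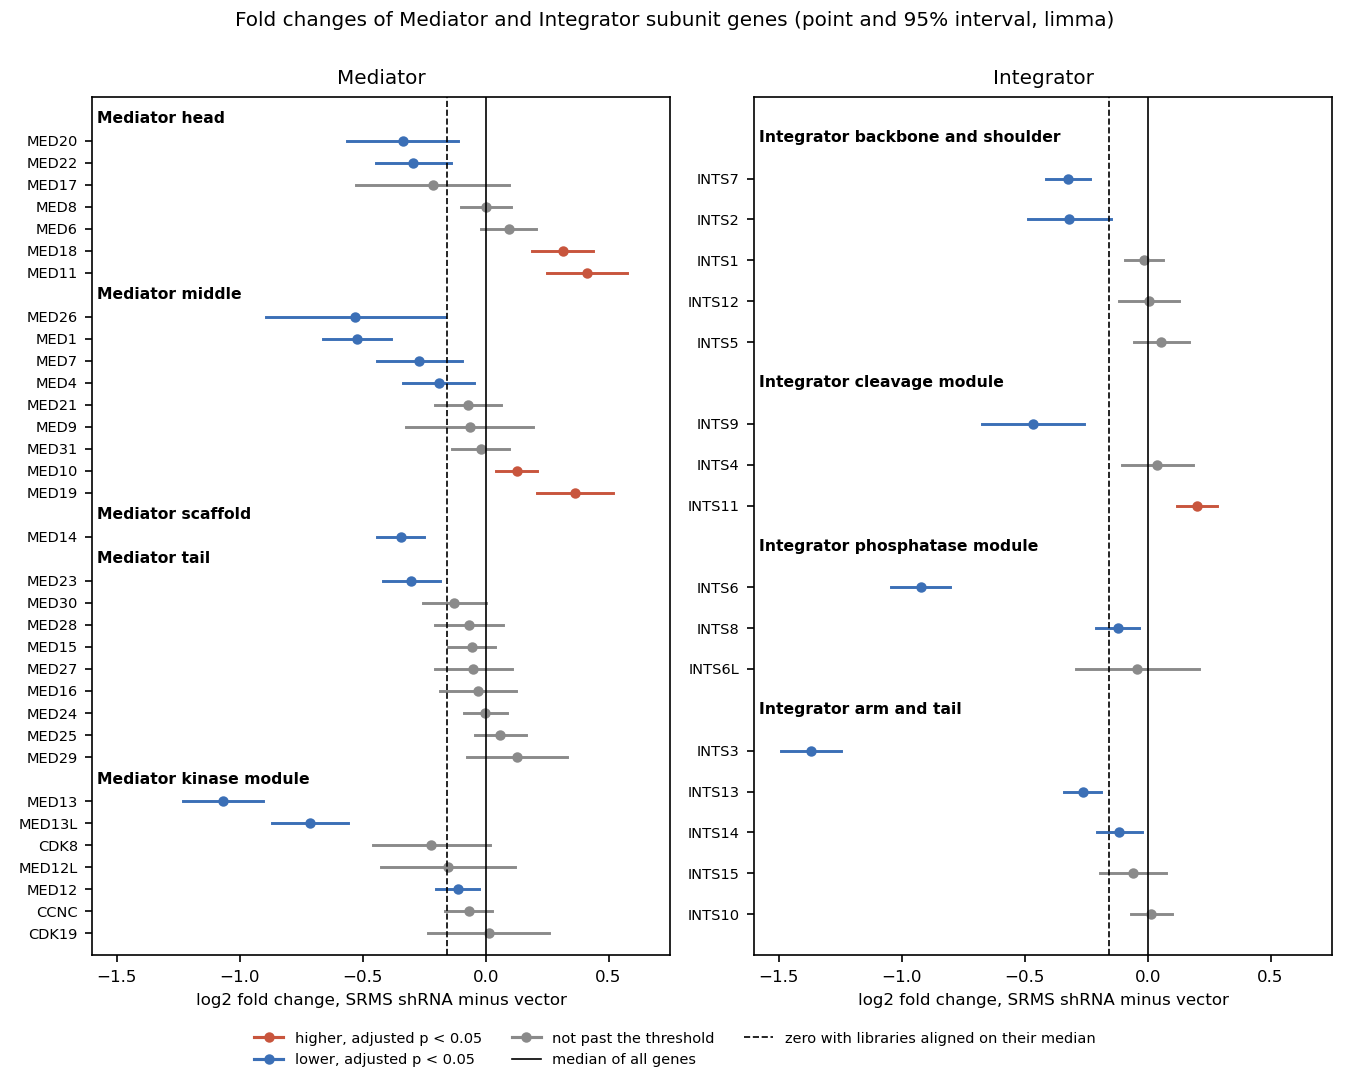
Log2 fold change (libraries labelled SRMS shRNA minus vector, horizontal axis) of each of the 49 subunit genes, grouped by structural module, with the 95% interval of the limma fit; red genes rose, blue genes fell and grey genes did not pass an adjusted p of 0.05. The solid line is the median of all genes and the dashed line marks where 0 would lie if libraries were aligned on their medians. INTS3, MED13, INTS6 and MED13L lie far to the left, and no gene rose beyond 0.41.

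The scaling of the libraries bears on the smaller changes. In the deposited scale the median of the log2 fold changes of all genes was 0.0031. The medians of the libraries themselves differed more between the groups, and aligning the libraries on them shifted every fold change up by 0.16. On that scale 16 members rose and 10 fell, against 44.6% and 17.9% of all genes. The median of the members went from -0.07 to 0.09 and that of all genes from 0.0031 to 0.1632. The members' median lay below that of all genes on both scales. The alignment moves every fold change alike and cannot alter this, so the second scale is no further evidence. Changes nearer to 0 than this shift therefore have no settled sign, and those of INTS3, MED13, INTS6, MED13L, MED1, INTS9, MED14, INTS7, MED23 and INTS13 kept theirs and their call under each of the 18 alternatives run. MED18 and MED19 did so among the genes that rose.

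Mediator by itself had 4 genes that rose (12.1%) and 11 that fell (33.3%) of 33, against 26.6% and 30.2% of all genes. The median log2 fold change was -0.07. With median alignment the counts were 10 and 5, against 44.6% and 17.9% of all genes. The genes that rose, MED11, MED18, MED19 and MED10, belong to the head and middle modules. The largest falls were in MED13 and MED13L of the kinase module.

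In the kinase module 3 of 7 genes fell (42.9%) and none rose, against 30.2% and 26.6% of all genes, with a median of -0.15. MED13, the large subunit that tethers the kinase module to the Mediator core, had signals of 74.8, 63.7 and 65.1 with the vector and 34.9, 29.6 and 31.9 in those labelled SRMS shRNA. The highest of the latter lay far below the lowest vector library. The level was 47.3% of the vector mean (log2 fold change -1.07, SE 0.073, limma adjusted p = 1.86e-06). MED13L, its paralog, had 27.0, 23.45 and 24.0 against 15.6, 15.0 and 14.2, again with no overlap. It came to 60.1% of the vector mean (-0.71, SE 0.0697, limma adjusted p = 1.66e-05). MED13 and MED13L are alternative subunits of the same position, so both genes for that position were lower.

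The other kinase module genes moved little. MED12, which activates the kinase by way of cyclin C, had 95.4, 90.8 and 90.1 with the vector and 86.7, 83.5 and 84.9 in those labelled SRMS shRNA. The groups did not overlap and MED12 was called lower (log2 fold change -0.11, limma adjusted p = 0.0271), but with median alignment the value was 0.05 and not past the threshold. The call also ended without vector replicate 1 (0.0918) or 2 (0.0573) and without replicate 2 (0.09) or 3 (0.0717) labelled SRMS shRNA. MED12L, its paralog, was near the bottom of the range at 1.44, 1.79 and 1.88 against 1.61, 1.32 and 1.503, with as few as 43 reads in a library, and the groups overlapped. CCNC, the cyclin, had 63.1, 65.4 and 68.6 against 61.9, 62.9 and 62.9. Its groups did not overlap, yet the difference of -0.07 did not pass (limma adjusted p = 0.188; without replicate 1 of both groups, 0.0307). CDK8, the kinase itself, had 13.4, 12.1 and 11.9 against 12.6, 9.13 and 10.4. The value of replicate 1 labelled SRMS shRNA lay inside the vector range, and the log2 fold change of -0.22 (95% interval -0.46 to 0.02) did not pass (limma adjusted p = 0.102). It did pass without that library (-0.34, limma adjusted p = 0.00625) and with the replicate block (adjusted p = 0.0126). CDK19, the paralogous kinase, had 3.51, 3.62 and 3.01 against 3.61, 3.02 and 3.61, with a log2 fold change of 0.01 (95% interval -0.23 to 0.26).

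**Figure D2:**
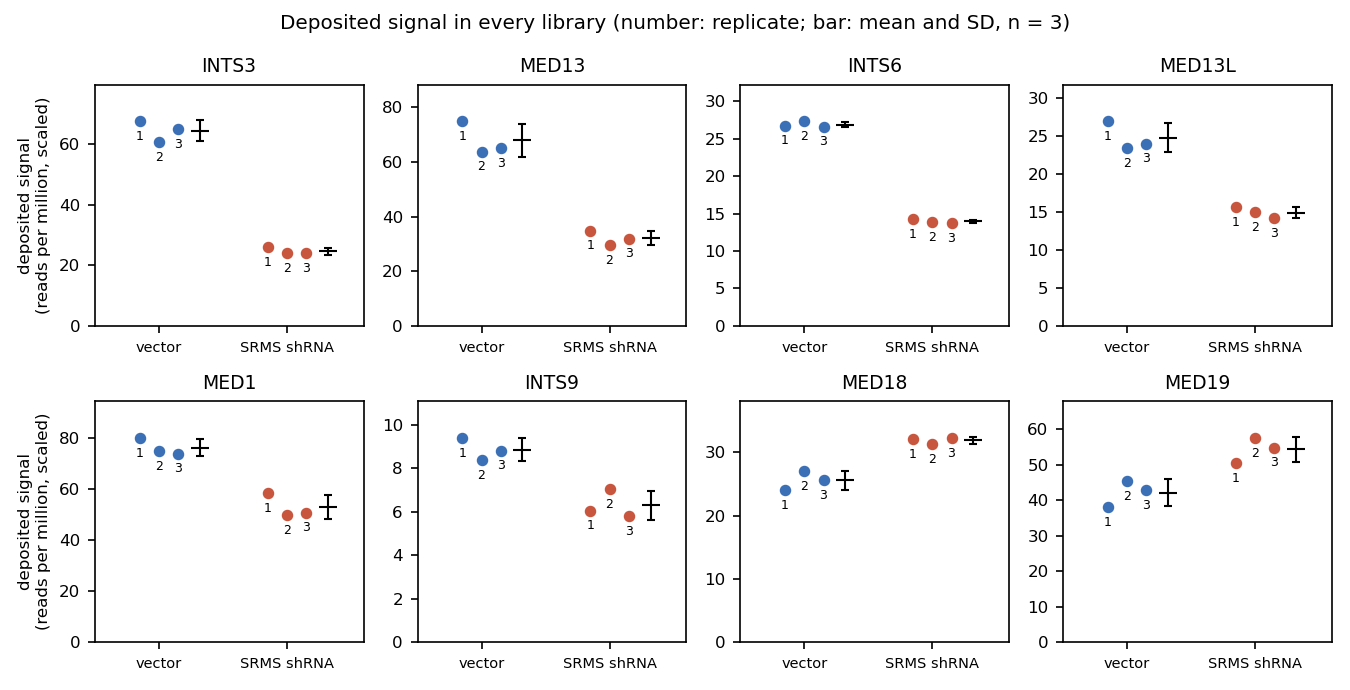
Deposited signal (CPM scale, vertical axis from 0) in each library for 8 subunit genes, with replicate numbers under the points and bars for the mean and SD of 3 libraries. INTS3, MED13, INTS6, MED13L, MED1 and INTS9 are lower in all 3 libraries labelled SRMS shRNA (red) than in any vector library (blue), and MED18 and MED19 are higher.

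Ratios of paralogs within a library are not changed by a single factor per library, as in median alignment, and 4 pairs were compared. Each is a log2 ratio of signal plus 0.5, tested by a two-sided exact permutation test of 3 against 3 libraries, whose smallest possible p is 0.1, so no pair could reach 0.05. For MED13/MED13L the ratio was 1.43 ± 0.0194 (SD, n = 3) with the vector and 1.08 ± 0.104 in those labelled SRMS shRNA, with no overlap (exact p = 0.1, adjusted over the 4 pairs 0.2). MED13 thus fell more than MED13L in each library, by 0.35 on the log2 scale. For INTS6/INTS6L the ratio went from 1.64 ± 0.133 to 0.76 ± 0.204 (SD, n = 3), also with no overlap (difference -0.88, exact p = 0.1, adjusted 0.2). CDK8/CDK19 went from 1.74 to 1.51 with overlapping groups (exact p = 0.2, adjusted 0.267). MED12/MED12L was 5.40 and 5.44 (exact p = 0.8, adjusted 0.8). Quantile scaling, which is no single factor, moved the difference of MED12/MED12L from 0.04 to 0.15 and that of CDK8/CDK19 from -0.23 to -0.11, and gave -0.43 for MED13/MED13L and -0.85 for INTS6/INTS6L. Per kilobase of annotated transcript, the vector level of MED13 was 3.82 times that of MED13L and fell to 3.01 times. The same ratio was 3.37 and 1.81 for INTS6 over INTS6L, 7.57 and 6.39 for CDK8 over CDK19, and 86.9 and 91.6 for MED12 over MED12L.

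**Figure D3:**
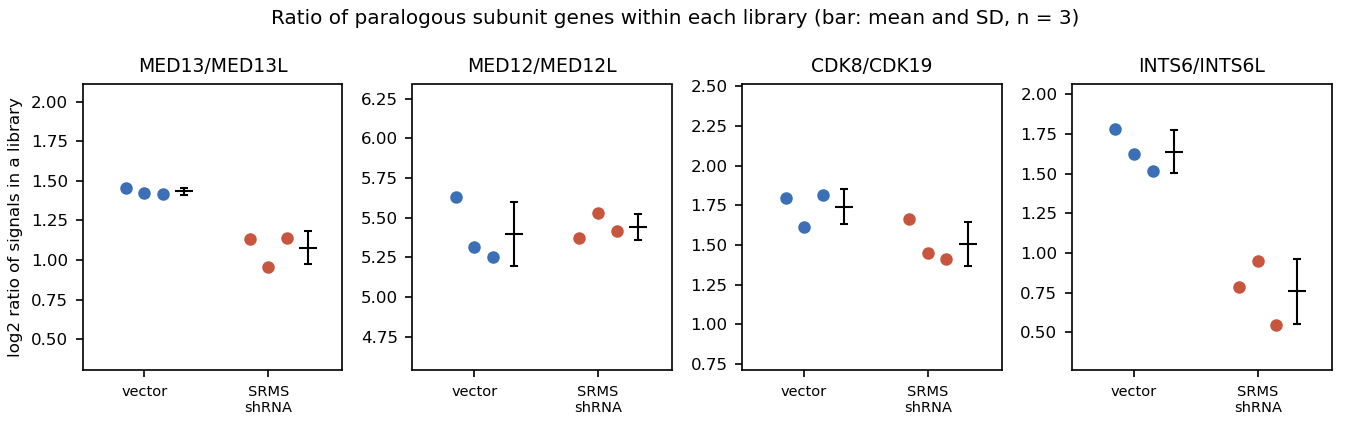
Log2 ratio of the signals of 2 paralogous subunit genes within each library (vertical axis, each panel with its own range), for the vector (blue) and the libraries labelled SRMS shRNA (red), with bars for the mean and SD of 3 libraries. The groups separate for MED13/MED13L and INTS6/INTS6L and overlap for MED12/MED12L and CDK8/CDK19.

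In the head module 2 of 7 genes rose and 2 fell (28.6% each, median 0.0009), near the 26.6% and 30.2% of all genes. MED11 and MED22 pair in the head, and their genes went opposite ways. MED11 had 7.53, 7.47 and 7.62 with the vector and 10.5, 9.76 and 10.4 in those labelled SRMS shRNA, with no overlap (log2 fold change 0.41, SE 0.073, limma adjusted p = 7.66e-04). MED22 had 16.3, 16.1 and 17.1 against 14.2, 13.6 and 12.4, also with no overlap (-0.29, limma adjusted p = 0.00452). MED18 and MED20 form the other head pair and differed likewise. MED18 had 24.1, 27.0 and 25.6 against 32.1, 31.3 and 32.3 (0.31, limma adjusted p = 7.84e-04), while MED20 had 16.1, 12.8 and 13.7 against 12.4, 11.1 and 9.91 (-0.34, limma adjusted p = 0.0164). The calls of MED22 and MED20 ended with median alignment (limma adjusted p = 0.109 and 0.144), and that of MED20 also without vector replicate 1 (0.0636) or replicate 3 labelled SRMS shRNA (0.068). MED17, the head's scaffold, MED6 and MED8 did not pass, with log2 fold changes of -0.22, 0.09 and 0.0009. Of the MED17 exon bases, 41.9% are shared with other genes on the same strand, so its value is uncertain. MED11 shares 25.9% with genes on the opposite strand, and no source used here gives the strand setting of the counting.

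The middle module had 2 genes that rose (22.2%) and 4 that fell (44.4%) of 9 (median -0.07), against 26.6% and 30.2% of all genes. MED1, the subunit that binds nuclear receptors, had 80.0, 74.7 and 73.8 with the vector and 58.3, 49.6 and 50.7 in those labelled SRMS shRNA. All 3 lay below every vector library (log2 fold change -0.52, SE 0.0621, limma adjusted p = 5.73e-05). MED19, which joins the middle module to the polymerase, had 38.2, 45.5 and 42.9 against 50.6, 57.6 and 54.9, and rose by 0.36 (limma adjusted p = 0.00124). MED10, another small middle subunit, had 70.2, 70.9 and 72.3 against 75.6, 78.8 and 78.7, a rise of 0.13 (limma adjusted p = 0.0159) whose call ended without vector replicate 2 (0.0572) and without replicate 2 (0.057) or 3 (0.0585) labelled SRMS shRNA. MED26, which recruits elongation factors to Mediator, had 3.58, 5.44 and 5.32 against 3.83, 2.69 and 2.88. The groups overlapped through replicate 1 of both, and the log2 fold change was -0.53 (limma adjusted p = 0.0183). That call ended with median alignment (0.0716) and without vector replicate 2 (0.075) or 3 (0.0728), or without replicate 2 (0.0738) or 3 (0.0614) labelled SRMS shRNA. MED26 shares 45.6% of its exon bases with other genes on the same strand.

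MED7, the hinge of the middle module, had 8.33, 8.32 and 8.71 against 7.04, 7.15 and 6.59 (log2 fold change -0.27, limma adjusted p = 0.0127), and MED4 fell by 0.19 (limma adjusted p = 0.0262). Both calls ended with median alignment (0.229 and 0.687) and without vector replicate 3 (0.0535 and 0.089); that of MED4 also ended without vector replicate 2 (0.118) and without replicate 3 labelled SRMS shRNA (0.0927). MED9, MED21 and MED31 did not pass, at -0.07, -0.07 and -0.02. MED31 shares 74.2% of its exon bases with TXNDC17 on the opposite strand. MED14, the scaffold that spans the core, had 87.6, 86.4 and 86.8 with the vector and 72.1, 65.8 and 67.1 in those labelled SRMS shRNA. Its groups stood well apart, at 78.7% of the vector mean (-0.35, SE 0.0429, limma adjusted p = 7.89e-05).

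The tail, where activators bind, had 1 gene of 9 that fell (11.1%) and none that rose (median -0.05), against 30.2% and 26.6% of all genes. The tail counts depend on the setting. With median alignment 3 rose and 1 fell, against 44.6% and 17.9% of all genes. With the replicate block and without the length and GC trend described below, 2 rose and 6 fell, against 28.6% and 32.6%. MED23, the subunit that ELK1 binds, had 43.6, 41.1 and 42.7 with the vector and 36.4, 33.3 and 33.3 in those labelled SRMS shRNA, with no overlap (log2 fold change -0.30, SE 0.0516, limma adjusted p = 6.24e-04). MED30 had 20.4, 21.7 and 20.8 against 18.6, 18.8 and 19.9. The groups did not overlap but the difference of -0.13 did not pass (limma adjusted p = 0.083; with the replicate block, 0.048). MED29 had 11.8, 13.9 and 14.6 against 13.6, 14.6 and 15.9, with overlap (0.13, limma adjusted p = 0.26). MED15, MED16, MED24, MED25, MED27 and MED28 lay between -0.07 and 0.06, and none passed. With that trend removed MED15, MED16, MED25 and MED27 were called lower (-0.09, -0.13, -0.11 and -0.25) and MED28 higher (0.19), while with median alignment MED24 and MED25 were called higher (0.16 and 0.22). MED24 was nearly equal in both groups, at 78.4 ± 1.25 and 78.3 ± 2.46 (SD, n = 3).

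Integrator had 8 genes of 16 that fell and 1 that rose, against 30.2% and 26.6% of all genes. The median log2 fold change was -0.09. With median alignment 5 fell and 6 rose, against 17.9% and 44.6% of all genes, and the median was 0.07. Integrator was not tested as a set. The largest fall of all 49 genes was in the Integrator arm. INTS3, the subunit shared with the SOSS complex, had 67.6, 60.8 and 65.1 with the vector and 25.9, 24.1 and 24.0 in those labelled SRMS shRNA. No library labelled SRMS shRNA came near the vector range, and INTS3 stood at 38.2% of the vector mean (log2 fold change -1.37, SE 0.0546, limma adjusted p = 8.86e-08). INTS13 and INTS14 belong with INTS10 to a nucleic acid binding arm. INTS13 had 146, 150.5 and 149.8 against 120.5, 125.5 and 125.3, a fall of small size with little spread (-0.26, SE 0.0347, limma adjusted p = 1.12e-04). INTS14 had 82.4, 79.6 and 82.0 (vector) and 71.9, 76.7 and 76.8 (-0.11, limma adjusted p = 0.0343). The INTS14 value turned to 0.05 with median alignment, and its call ended without vector replicate 1 (0.0855), 2 (0.0558) or 3 (0.108) and without replicate 1 labelled SRMS shRNA (0.0693). INTS10 and INTS15 did not pass, at 0.02 and -0.06. The arm and tail list in all had 3 of 5 genes that fell (60.0%), against 30.2% of all genes, and a median of -0.11.

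INTS3 binds NABP1 or NABP2, the single-strand DNA binding proteins of SOSS, and INIP, and these 3 genes were read as a list. NABP1 fell (51.9 ± 1.08 to 43.9 ± 0.894, SD, n = 3; log2 fold change -0.24) and INIP fell (9.71 ± 0.337 to 7.71 ± 0.752; -0.32), while NABP2 rose (77.3 ± 5.65 to 92.0 ± 3.43; 0.25). Their limma adjusted p were 7.22e-04, 0.00957 and 0.00256. The falls of NABP1 and INIP were not past the threshold with median alignment (0.115 and 0.122). INTS3 fell far more than any of its SOSS partners, a difference between genes that was not tested.

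In the phosphatase module INTS6 and INTS8 link PP2A to Integrator, and 2 of 3 genes fell (median -0.12), against 30.2% of all genes. INTS6 had 26.7, 27.3 and 26.6 with the vector and 14.2, 13.9 and 13.75 in those labelled SRMS shRNA. The spread within each group was very small beside the gap between them, and INTS6 came to 51.9% of the vector mean (log2 fold change -0.92, SE 0.054, limma adjusted p = 8.22e-07). INTS6L, its paralog on the X chromosome, had 7.43, 8.54 and 8.97 against 8.06, 6.93 and 9.27, with overlap and a log2 fold change of -0.04 (95% interval -0.29 to 0.21, limma adjusted p = 0.771). INTS8 had 75.7, 76.3 and 77.6 against 71.3, 67.8 and 71.7 (-0.12, limma adjusted p = 0.0215). INTS8 turned to 0.04 with median alignment. Its call ended without vector replicate 2 (0.0623) or 3 (0.0847) or replicate 2 labelled SRMS shRNA (0.0862). INTS8 also shares 35.2% of its exon bases with CCNE2 on the opposite strand. Of the 4 PP2A core genes, the scaffold genes PPP2R1B (42.7 ± 1.02 to 29.7 ± 1.58, SD, n = 3; -0.52, limma adjusted p = 2.11e-05) and PPP2R1A (-0.20) fell, and the catalytic gene PPP2CB rose by 0.23. PPP2R1A was at -0.04 with median alignment and no longer called.

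In the cleavage module INTS11, the endonuclease, rose and INTS9, its inactive partner, fell. INTS11 had 144, 151 and 152 with the vector and 166, 175.5 and 172 in those labelled SRMS shRNA, with no overlap (log2 fold change 0.20, SE 0.0371, limma adjusted p = 0.00102). INTS9 had 9.40, 8.36 and 8.82 against 6.06, 7.04 and 5.79, at 71.0% of the vector mean (-0.47, SE 0.0936, limma adjusted p = 0.00174). INTS4, which holds both, had 18.2, 17.6 and 18.8 against 17.4, 19.0 and 19.7 and did not pass (0.04, limma adjusted p = 0.63). In the backbone and shoulder 2 of 5 genes fell (40.0%) and none rose (median -0.01), against 30.2% and 26.6% of all genes. INTS7 had 58.6, 56.7 and 57.3 against 46.2, 44.8 and 46.4, with a wide gap (-0.32, SE 0.0405, limma adjusted p = 8.04e-05). INTS2 had 33.6, 29.9 and 31.2 against 27.9, 22.7 and 25.2 (-0.32, limma adjusted p = 0.0047), a call that ended with median alignment (0.0805). INTS2 (61865367 to 61928016) is the neighbour of MED13 on the minus strand of chromosome 17 and fell less than it. INTS5 had 52.6, 47.4 and 48.4 against 52.8, 51.6 and 49.6 and did not pass (0.06, limma adjusted p = 0.378), and neither did INTS1, the largest backbone subunit (-0.01), or INTS12 (0.0069).

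Levels between genes were compared per kilobase of annotated transcript in the vector libraries. INTS11 was highest at 69.4 ± 1.98 (SD, n = 3), followed by MED10 at 62.3 ± 0.947 and INTS13 at 50.04 ± 0.798, with gaps wider than their SDs. MED19 (35.1 ± 3.08), INTS14 (34.0 ± 0.634) and MED25 (33.4 ± 1.29) came next and lay within the spread of one another. MED12L was lowest at 0.159 ± 0.0218, below CDK19 at 0.542 ± 0.0519, MED17 at 1.06 ± 0.213, MED26 at 1.505 ± 0.327 and MED13L at 1.70 ± 0.129; MED26 did not differ from MED17 or MED13L beyond this spread. In the libraries labelled SRMS shRNA, INTS3 went from 12.3 to 4.71 per kilobase, INTS6 from 7.34 to 3.81, MED13 from 6.49 to 3.07 and MED13L from 1.70 to 1.02.

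Fold changes in these libraries ran with transcript length, in the members and in all genes. Of the 11 members under 2000 nt, 4 rose and none fell; of the 22 from 2000 to 4000 nt, 1 rose and 8 fell; and of the 16 from 4000 nt, none rose and 11 fell. For all genes the shares that rose were 49.3%, 25.4% and 11.2% in these classes and those that fell 8.31%, 27.0% and 49.9%. Across the 49 members, log2 length and log2 fold change had a Pearson r of -0.525 and a Spearman rho of -0.52, against -0.425 and -0.456 across all 14029 genes; these are descriptions across genes that share the same 6 libraries. A fit that added the replicate block and removed the trend of length and GC content called 6 members higher and 27 lower, against 28.6% and 32.6% of all genes, and r over the members was -0.10. There INTS3 fell by 1.24, INTS6 by 0.82, MED13 by 0.77, INTS9 by 0.52, MED13L by 0.46, MED1 by 0.33 and MED14 by 0.08 on the log2 scale. MED13, MED13L, MED1 and MED14, the long transcripts among them, thus moved most between the fits. MED11 was at 0.11 (adjusted p = 0.248), INTS11 at 0.05 (0.0656) and INTS2 at -0.08 (0.117), with their calls ended. MED10 and INTS8 were called in the opposite direction, at -0.08 and 0.07. MED8, MED25 and MED31 did not pass as deposited but were called lower here (-0.12, -0.11 and -0.13) and higher with median alignment (0.16, 0.22 and 0.14). The part of length in the results was not tested beyond these fits.

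**Figure D4:**
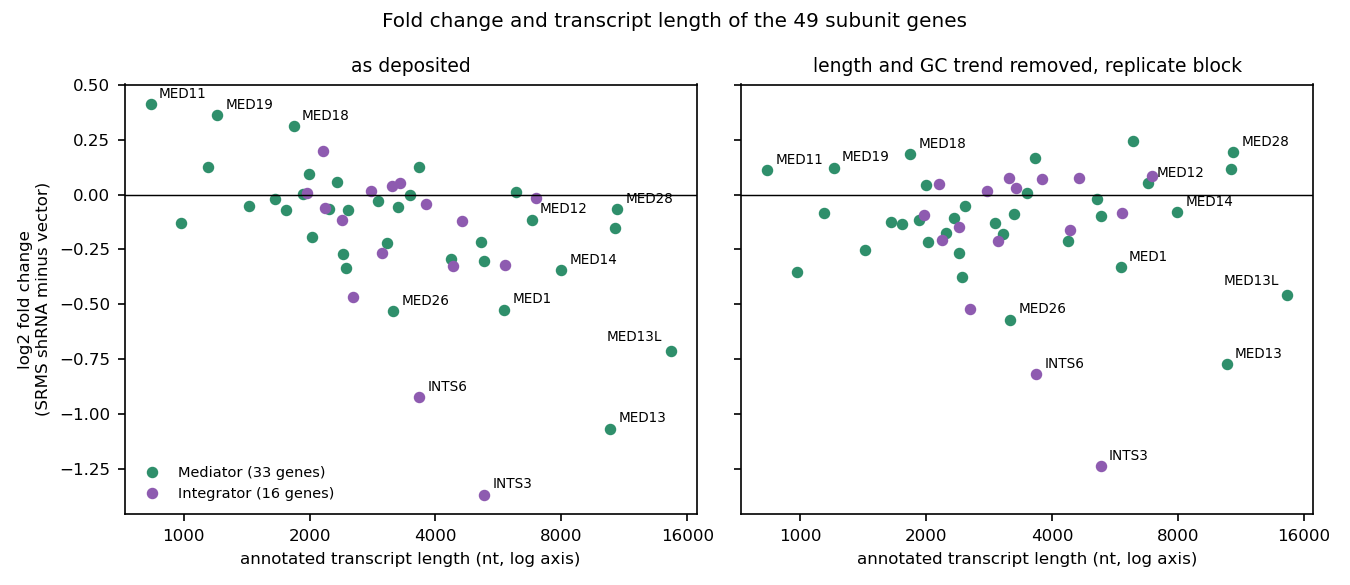
Log2 fold change (vertical axis) against annotated transcript length (nt, log axis) for the 33 Mediator (green) and 16 Integrator (purple) genes, as deposited on the left and after removal of the length and GC trend with a replicate block on the right. On the left short members lie above long ones, and INTS3, INTS6 and MED13 lie lowest in both panels.

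Genes that work with these complexes on RNA polymerase II were read from 8 lists, including the PP2A and SOSS lists above. Of 13 polymerase subunit genes 8 rose and 2 fell (median 0.17; with median alignment 10 and 0; with the trend removed 6 and 2, median 0.06), among them POLR2K (87.8 ± 4.69 to 121 ± 4.58, SD, n = 3; log2 fold change 0.46), POLR2G (0.35) and POLR2F (0.35). The 2 polymerase genes that fell were POLR2A (-0.24, limma adjusted p = 0.0344) and POLR2D (-0.17, 0.0481), named after their values were seen. Neither was called with median alignment. With the trend removed POLR2A was still lower (-0.37) and POLR2D was at 0.0032. The pausing factors NELF and DSIF hold the polymerase where Integrator meets it. Of their 6 genes 3 rose and none fell (median 0.13): NELFE by 0.39, SUPT4H1 by 0.33 and SUPT5H by 0.19. With the trend removed these 3 still rose, and NELFA (-0.19) and NELFB (-0.17) were called lower. Another list holds P-TEFb and the super elongation complex, which release paused polymerase, and also HEXIM1, HEXIM2, LARP7 and MEPCE, which hold P-TEFb inactive with 7SK RNA. Of its 17 genes 11 fell and 3 rose (median -0.43; with median alignment 9 and 4; with the trend removed 12 and 4), and 8 fell by at least 0.5. Those that rose were HEXIM1 (0.21), LARP7 (0.17) and ELL3 (0.41), named after their values were seen. HEXIM2 was called lower (-0.33, limma adjusted p = 0.0279), a call that ended with median alignment (0.2165). MEPCE did not pass (-0.09) but was called lower with the trend removed (-0.15). The genes that hold P-TEFb inactive thus went both ways. MLLT1 went from 41.3 ± 1.75 to 18.7 ± 1.70 (SD, n = 3; -1.12, limma adjusted p = 9.45e-07), AFF4 from 59.0 ± 1.76 to 30.0 ± 3.29 (-0.97) and ELL2 from 91.5 ± 2.70 to 60.0 ± 1.74 (-0.60). MLLT1, AFF4 and ELL2 kept their direction and call with median alignment and with the trend removed, as did POLR2K and POLR2F, but POLR2G was at 0.05 with the trend removed (adjusted p = 0.144) and no longer called.

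Of 15 genes of the poly(A) cleavage factors CPSF and CSTF, which form mRNA ends with an enzyme related to INTS11, 6 rose and 5 fell (median 0.02), with falls in WDR33 (-0.75), CSTF1 (-0.54) and CPSF7 (-0.29). Of 29 genes of the general factors TFIID, TFIIB and TFIIH, 9 rose and 10 fell (median -0.02; with the trend removed 4 and 15; with median alignment 15 and 6), with TAF4 at -0.78, TAF5 at -0.64 and GTF2H5 at 0.44. Immediate early genes are induced within minutes of a stimulus through paused polymerase, and 10 of 13 rose while none fell (median 0.57). With the replicate block MYC (-0.13) was called lower (adjusted p = 3.64e-05), and with the trend removed FOSL1 (-0.22), MYC (-0.38) and DUSP1 (-0.16) were called lower and 9 genes rose. FOS went from 29.3 ± 1.51 to 59.8 ± 3.35 (SD, n = 3; 1.02, limma adjusted p = 5.92e-07), FOSB from 13.8 ± 0.958 to 29.8 ± 0.279 (1.08) and ATF3 from 24.0 ± 1.63 to 51.1 ± 4.59 (1.07). The high background of changed genes, 30.2% lower and 26.6% higher, applies to each of these lists, and no list was tested as a set. With median alignment that background was 17.9% lower and 44.6% higher, and with the trend removed 32.6% and 28.6%.

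**Figure D5:**
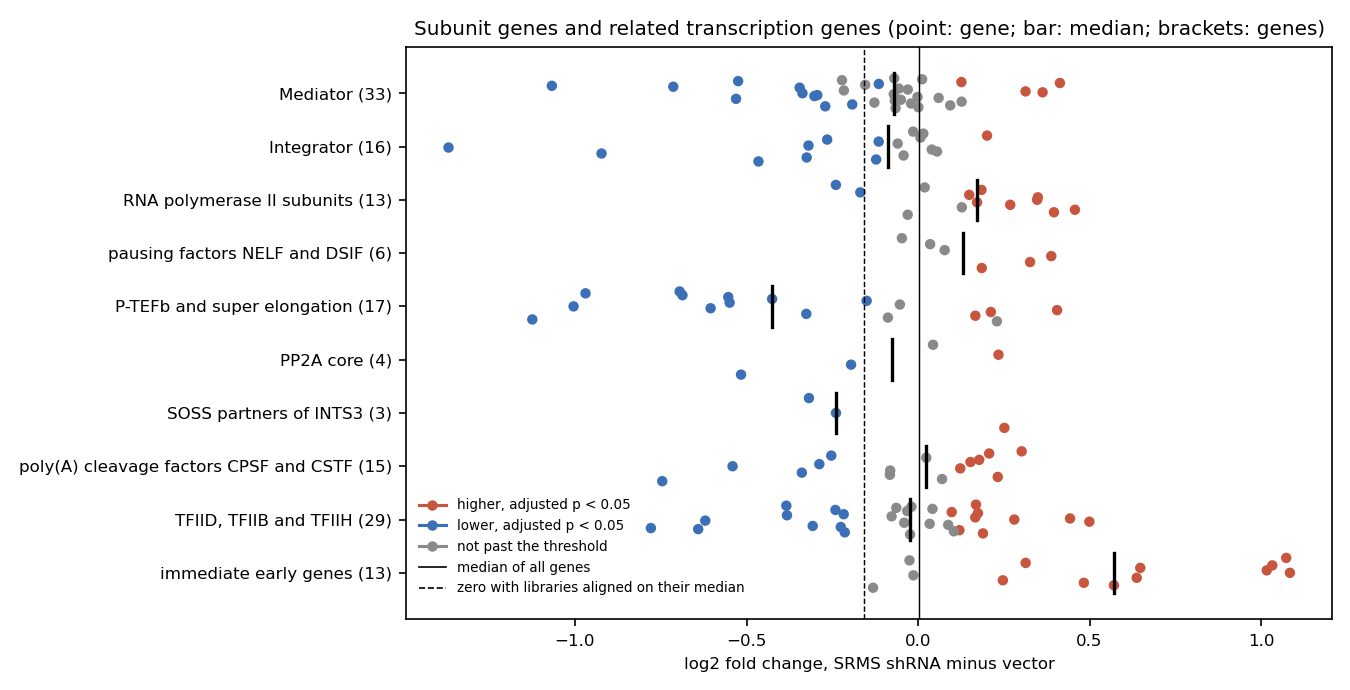
Log2 fold change (horizontal axis) of each gene in the Mediator and Integrator groups and in 8 lists of related genes, with the number of genes in brackets, a black bar at each median, and colours for genes that rose (red), fell (blue) or did not pass (grey). P-TEFb and super elongation genes lie mostly to the left with a median of -0.43, and immediate early genes mostly to the right with a median of 0.57.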

How the data were processed

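Poly(A) RNA of 6 cisplatin libraries was analysed; stranded libraries were read as paired ends on a NovaSeq instrument, per the labels' protocols. FastQC, cutadapt and HISAT2 (build GRCh38), then StringTie and edgeR, are named per the submitters' processing notes; no source used here gives their settings. The table deposited by the authors is named log CPM but holds a linear signal: whole multiples of 1 read's worth in each library (at least 99.993% of values within 0.1 read), with column sums of 973481.2 to 1047473.7. Of its 14042 rows, 13 for Y copies of pseudoautosomal genes were left out, and 14007 of 14029 genes had a symbol. The main fit was limma 3.58.1 (R 4.3.3) with a mean-variance trend on log2(signal + 0.5), 3 against 3 libraries, Benjamini-Hochberg over 14029 genes, threshold 0.05; fold changes are on that scale and understate those of low genes. Alternatives were other scalings, pseudocounts and filters, count tests on recovered reads (edgeR 4.0.16, DESeq2 1.42.0), libraries left out and a replicate block. Same-numbered libraries deviated together (r of 0.486, 0.238 and 0.225 across genes with a mean log2 value of at least 1), so the replicate block took numbers to pair samples. Across all genes these r were lower, at 0.309, 0.106 and 0.12. The main fit and the exact tests did not pair libraries. Replicates 2 and 3 also correlated across numbers (0.198 and 0.202), nearly as much as within them. Across all genes they did so as much as within them (0.114 and 0.113), so their pairing is not settled. Lengths, exon overlaps and transcripts came from GENCODE release 29. Members, modules and lists were chosen with earlier results of these data known. Values in every library are given for the kinase module, INTS6 and INTS6L, the 3 smallest adjusted p in each other module and the 5 highest and lowest fold changes; each pathway list names up to 3 genes by adjusted p. MED10, MED20 and the further pathway genes named fall outside this rule and were added after their values were seen. The main limma fit and the edgeR fit were tested on simulated counts. Those counts held no replicate effect, length trend or scaling shift, so the simulation does not bear on these limits.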

Additional observations from a re-analysis of the deposited data

How the results depend on the processing

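Over 18 alternatives, 12 of the 24 called members kept their call. Precision is limited by 3 libraries a group, by 43 reads for MED12L in its lowest library, by a shift of 0.16 (log2) between scalings, and by fold changes that ran with transcript length; fold changes near 0 have no settled sign. The cause of the differences below was not tested. The Mediator genes that fell (11) numbered 5 with median scaling, 6 with quantile scaling and 6 with replicates 2 and 3 averaged. They numbered 20 with the replicate block and the length and GC trend removed. Of all 14029 genes, 4233 fell in the main fit and 2510, 3683, 3287 and 4572 in those settings, in that order. The Mediator genes that rose (4) numbered 10 with median scaling, against 3736 and 6254 of all genes. The Mediator median of -0.07 was 0.0906, -0.0137 and -0.1064 with median scaling, quantile scaling and the trend removed, and -0.0911 without replicate 1 of both groups. For all genes the main median was 0.0031, and it was 0.1632, 0.0116, -0.0072 and -0.0033 in those settings. The Integrator genes that rose (1) numbered 6, 3 and 2 with median scaling, quantile scaling and the trend removed. Of all genes, 3736 rose in the main fit and 6254, 3971 and 4015 in those settings. Integrator genes that fell (8) numbered 5 with median scaling, against 4233 and 2510 of all genes. Their median of -0.09 was 0.073 with median scaling, -0.0966 without replicate 1 of both groups, -0.0774 with edgeR and -0.0729 with DESeq2. The replicate block alone, which follows the pairing by number, gave 4 Mediator genes higher and 13 lower and 1 and 8 for Integrator. Of all genes, 4349 were then higher and 4805 lower. The block added CDK8 and MED30 to the members that fell and changed no other member's call. Leaving out 1 library in turn gave 3 to 4 Mediator genes higher, 7 to 12 lower and medians of -0.1006 to -0.0703, and for Integrator 1 higher, 6 to 8 lower and medians of -0.134 to -0.0811. The MED12/MED12L difference of 0.04 was -0.0341 with replicates 2 and 3 averaged and -0.0346 to 0.1548 with 1 library left out. Other changes of sign were in log2 fold changes near 0, as follows. With median scaling, the values were CCNC 0.0906, INTS1 0.1457, INTS14 0.0453, INTS15 0.1007, INTS6L 0.1179, INTS8 0.0379, MED12 0.0456, MED12L 0.0058, MED15 0.1038, MED16 0.1302, MED21 0.0892, MED24 0.1584, MED27 0.1099, MED28 0.0923, MED30 0.0328, MED31 0.1396 and MED9 0.0945. With quantile scaling, the values were INTS15 0.0354, INTS6L 0.0737, MED21 0.0805, MED24 0.0146, MED27 0.1043, MED28 0.0798, MED30 0.0178, MED31 0.1033 and MED9 0.0436. With the replicate block and the trend removed, the values were INTS1 0.0841, INTS12 -0.0911, INTS6L 0.0735, INTS8 0.0738, MED10 -0.0846, MED12 0.0534, MED12L 0.1157, MED24 0.0069, MED25 -0.1064, MED28 0.1936 and MED8 -0.1152. With replicates 2 and 3 averaged, the value was MED8 -0.004. Without replicate 1 of both groups, the values were INTS10 -0.0055, INTS12 -0.0031, MED16 0.0472, MED24 0.0094 and MED9 0.0079. MED24 was 0.007 with edgeR and 0.0114 with DESeq2. With 1 library left out, the ranges that crossed 0 were CDK19 -0.0585 to 0.086, INTS1 -0.0389 to 0.0028, INTS10 -0.0043 to 0.0352, INTS12 -0.0196 to 0.0464, INTS6L -0.1399 to 0.0579, MED16 -0.092 to 0.0636, MED24 -0.0227 to 0.0221, MED31 -0.0629 to 0.0028, MED8 -0.0291 to 0.0292 and MED9 -0.1638 to 0.0552. MED10, INTS8, MED8, MED25 and MED31 passed the test in both directions over the settings run.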
